A study of Mus musculus with 92 samples.

Results

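The genes described here are 10 members of the ATF4 program of the integrated stress response, Atf4, Atf5, Cebpg, Ddit3, Trib3, Ppp1r15a, Chac1, Asns, Psat1 and Phgdh, taken by gene symbol from the 29956 named genes of the expression table. When PKR (Eif2ak2), PERK (Eif2ak3), GCN2 (Eif2ak4) or HRI (Eif2ak1) phosphorylates the translation initiation factor eIF2, general protein synthesis falls while the Atf4 mRNA is translated more efficiently. ATF4 protein then activates genes of amino acid synthesis and transport, feedback regulators of the response and, under lasting stress, genes tied to cell death. PKR senses double-stranded RNA, and ADAR1, encoded by Adar, edits such RNA from adenosine to inosine.

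Bulk RNA-seq was measured in 92 libraries of mouse myeloid cells from 25 groups. ER-Hoxb8 cells are bone marrow progenitors kept immature by an estrogen-dependent Hoxb8 protein, which mature once estradiol is withdrawn. The expression values are log2 CPM, read counts scaled for library size and not for gene length, so levels are compared between libraries for 1 gene and not between genes.

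In the Adar1 experiment, ER-Hoxb8 cells from an FVB mouse heterozygous for Cas9 carried either a non-targeting control guide (NTC) or an Adar guide, called sgRNA 1 or sgRNA 2. Progenitors grew in beta-estradiol and GM-CSF, and macrophages were collected after 7 days in M-CSF. There were 3 libraries each of NTC progenitors, sgRNA 1 progenitors, NTC macrophages and sgRNA 1 macrophages, and 3 progenitor and 5 macrophage libraries of sgRNA 2. The NTC progenitors and NTC macrophage replicate 2 have library names with NTC2, and NTC macrophage replicates 1 and 3 have names with NTC. The NTC cells of the stages may thus be different lines, which bears on the NTC step between stages and on stage differences in KO effect. In the baricitinib experiment, NTC and sgRNA 1 Adar1 KO cells received this JAK inhibitor at 0, 0.0006, 0.016, 0.4 or 10 µM with each change of medium over the same 7 days, with 3 or 4 libraries a group, sequenced at another facility. The sample titles give these doses, while the treatment text has 0.00064 in place of 0.0006 and 0.16 in place of 0.016 µM, so the dose order is firmer than the doses.

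The other groups were bone marrow (BM) progenitors and monocytes and bone marrow-derived (BMD) macrophages, all from wild-type FVB mice, with 3 libraries each. Macrophages of both sources grew for 7 days. ER-Hoxb8 progenitors, day 4 cells and macrophages without a guide came from FVB mice carrying Cas9, again with 3 libraries each. By their labels these ER-Hoxb8 cells were heterozygous for Cas9, so they differed from the BM groups in genotype as well, while the ER-Hoxb8 cells injected below are labelled wild type. Microglia-like cells (MLCs) were wild-type BM (BMD MLCs) or ER-Hoxb8 cells injected into the brains of mice lacking Csf1r, whose own microglia are absent, and sorted back out, with 6 libraries each. The ER-Hoxb8 MLC libraries carry the names of different series, GFPHox and WTHox, so that group may mix donor cells. Microglia sorted from uninjected wild-type FVB brains gave 9 libraries. The labels do not say which Adar1 libraries came from separately edited cultures, so p-values measure the spread between samples, which may be technical. The paper describes the baricitinib cultures as differentiated independently, but does not say that they were edited separately. In bulk RNA a smaller share of expressing cells and less RNA per cell cannot be told apart.

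Libraries were compared only among those sharing 1 lowest value of the table, which defined 6 sets with mean depths, estimated from that value, of 13.7 to 40.6 M reads. The early set held 12 libraries, the brain set with its in vitro macrophages 27, the sgRNA 1 set 11, the sgRNA 2 set 8 and the baricitinib set 33. NTC macrophage replicate 2 stood alone with a lowest value of its own. Its values are therefore given in the text but entered no test, leaving 2 NTC macrophage libraries, and no NTC library shared a set with sgRNA 2. All 10 genes passed the filter on low values, CPM above 1 in at least 3 libraries (6 in the brain set), in each of the 5 sets tested.

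Several libraries stood apart from their groups before any gene was tested. Of the Adar1 KO libraries labelled 0.4 µM, replicate 2 had a median correlation across genes of 0.905 with its own group and 0.943 with Adar1 KO cells at 0.016 µM. The values of replicates 1 and 3 with their own group (0.943 and 0.944) each include replicate 2, so their higher values with NTC cells at 0.4 µM (0.971) and 10 µM (0.964) do not set them apart. Of the ER-Hoxb8 progenitors, replicate 2 was closer to day 4 cells (0.963) than to its own group (0.883). Of the 6 ER-Hoxb8 MLC libraries, 4 were closer to BMD MLCs than to their own group, replicates 1 (0.899 against 0.865), 2 (0.864 against 0.848), 4 (0.845 against 0.835) and 6 (0.848 against 0.835), which bears on every comparison of these cells. Smaller gaps are not listed. These correlations are over the genes above 1 CPM in any library of the set. Another measure, over the genes above 1 CPM in any microglia library and not comparable with them, was 0.703 for microglia replicate 8 with the other microglia, whose own values were all above it. That library had 12870 genes above the lowest value, against 15541 to 16717 in the other microglia.

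Adar mRNA itself was not lower in the progenitors, macrophages and untreated cells labelled Adar1 KO, but was lower in those at 10 µM baricitinib. NTC progenitors measured 4.20, 3.42 and 4.28 log2 CPM, sgRNA 1 progenitors 4.36, 4.23 and 4.24, and sgRNA 2 progenitors 4.35, 4.56 and 4.36. NTC macrophages had 5.73 and 5.67 (5.86 in the library standing alone), sgRNA 1 macrophages 6.96, 7.15 and 7.01, and sgRNA 2 macrophages between 6.99 and 7.03. Without baricitinib, NTC cells had 5.12, 4.94 and 4.69 and Adar1 KO cells 7.42, 6.52 and 6.37. At 10 µM the order turned, with 3.70, 3.64 and 3.22 in NTC and 1.55, 2.15, 2.91 and 2.03 in Adar1 KO cells. The test of Adar between KO and NTC gave log2 fold changes of 0.31 in progenitors (limma, adjusted p = 0.92) and 1.34 in sgRNA 1 macrophages (adjusted p = 9.8e-04, higher in 3 of 3 libraries), and -1.36 at 10 µM (adjusted p = 0.0146). An indel left by a guide need not lower mRNA, so the mRNA checks the labels only in a limited way, and Adar1 KO here names libraries by their label.

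Promoters are shown because several members moved together in macrophages. The RefSeq promoter table (build GRCm38.p6, 250 bases before to 50 after the start) held all 10 genes with 12 promoters, and each was searched for TGATGNAA, a core of the composite CEBP-ATF element, on both strands (TTNCATCA on the other). It was found in 3 members, Chac1 (plus strand, chr2:119350992-119351291), Trib3 (minus strand, chr2:152344011-152344310) and Asns (minus strand, chr6:7693160-7693459), so in 3 of 10 genes, beside 4.51% of the 27025 genes and 3.97% of the 32851 promoters in the table. The capitals mark the match, which describes these letters only and shows no binding.
Chac1: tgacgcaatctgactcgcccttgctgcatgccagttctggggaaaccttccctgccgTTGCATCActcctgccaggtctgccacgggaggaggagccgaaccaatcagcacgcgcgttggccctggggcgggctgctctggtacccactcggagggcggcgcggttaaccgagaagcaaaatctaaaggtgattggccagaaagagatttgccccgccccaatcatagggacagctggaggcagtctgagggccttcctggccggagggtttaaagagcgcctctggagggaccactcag
Trib3: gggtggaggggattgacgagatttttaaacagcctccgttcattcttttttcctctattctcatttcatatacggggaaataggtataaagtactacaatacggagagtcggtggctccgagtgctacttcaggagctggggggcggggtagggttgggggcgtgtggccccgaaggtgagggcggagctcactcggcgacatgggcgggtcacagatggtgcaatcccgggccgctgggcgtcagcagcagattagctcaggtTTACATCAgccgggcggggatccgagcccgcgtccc
Asns: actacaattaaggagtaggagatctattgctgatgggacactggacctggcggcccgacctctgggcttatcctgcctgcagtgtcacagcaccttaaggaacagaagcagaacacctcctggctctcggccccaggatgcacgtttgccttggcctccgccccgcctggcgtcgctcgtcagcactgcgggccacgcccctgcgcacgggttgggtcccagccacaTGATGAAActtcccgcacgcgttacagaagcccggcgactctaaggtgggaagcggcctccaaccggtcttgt

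In progenitors, none of the 10 genes passed the test between sgRNA 1 and NTC, whereas in macrophages 7 did, with Ddit3, Trib3, Chac1 and Phgdh more than 2 log2 units higher in the sgRNA 1 libraries. The macrophage comparison rests on 3 sgRNA 1 libraries against 2 NTC libraries. The plot of values by stage shows each library.

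**Figure D1:**
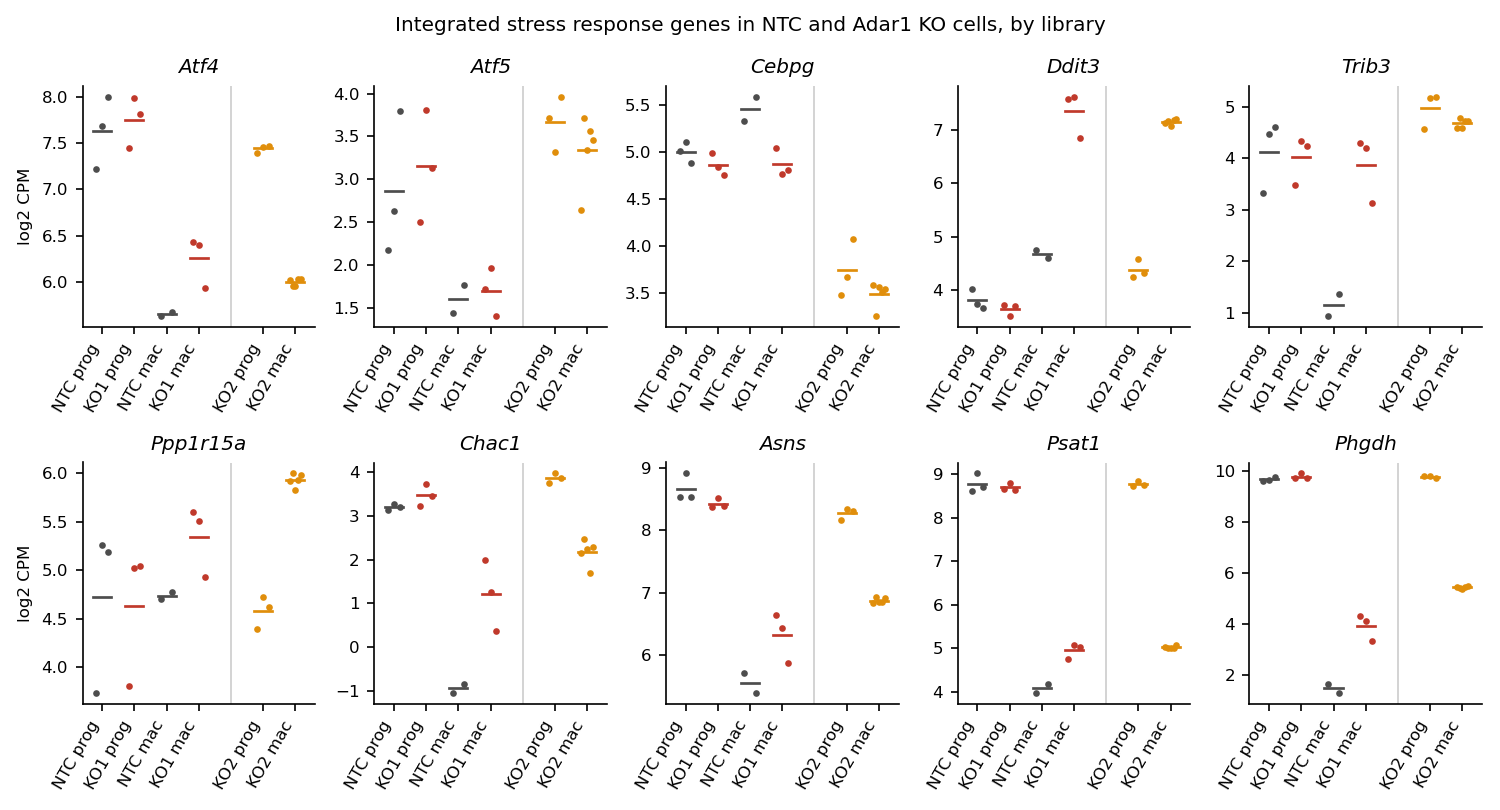
Log2 CPM of the 10 genes (vertical axes) in NTC and Adar1 KO progenitors and macrophages, 1 point a library and a bar at each group mean (KO1, sgRNA 1; KO2, sgRNA 2); the sgRNA 2 libraries, normalized in another set, stand right of the grey line, and NTC macrophage replicate 2 is left out. Ddit3 sits at 6.84 to 7.61 in sgRNA 1 macrophages against 4.75 and 4.61 in NTC macrophages, while the NTC and sgRNA 1 progenitors lie between 3.52 and 4.03.

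Among the transcription factors, Atf4, the factor that drives the program, had 7.22, 7.68 and 8.00 log2 CPM in NTC progenitors and 7.45, 7.98 and 7.81 in sgRNA 1 progenitors. In macrophages it had 5.64 and 5.67 in NTC (5.65 alone) and 6.44, 6.40 and 5.94 in sgRNA 1. The progenitor groups overlapped, and the macrophage groups did not, but the macrophage difference of 0.61 (SE 0.23) missed the threshold (limma, adjusted p = 0.0814). Without sgRNA 1 macrophage replicate 3, the lowest of that group, it was 0.77 with an adjusted p of 0.0429. Atf5, a related factor that is itself under translational control, overlapped between NTC macrophages (1.45 and 1.77, 1.64 alone) and sgRNA 1 macrophages (1.73, 1.96 and 1.41). Cebpg, a bZIP partner of ATF4, moved the other way. It had 5.33 and 5.58 in NTC macrophages (5.13 alone) against 5.04, 4.77 and 4.80, and fell by 0.58 (SE 0.14, adjusted p = 0.0124, lower in 3 of 3 libraries). That call was lost without NTC macrophage replicate 3 (-0.46, adjusted p = 0.104).

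Ddit3, which encodes the death-associated factor CHOP, showed the widest gap between the groups for its spread. It had 4.03, 3.74 and 3.68 in NTC progenitors, 3.73, 3.52 and 3.70 in sgRNA 1 progenitors, 4.75 and 4.61 in NTC macrophages (4.51 alone) and 7.57, 7.61 and 6.84 in sgRNA 1 macrophages. Only the sgRNA 1 macrophages of this set were high, and every one of them was more than 2 log2 units above the NTC macrophages. The difference was 2.66 (SE 0.22, adjusted p = 6.2e-06). Ddit3 in sgRNA 2 macrophages measured 7.11, 7.16, 7.07, 7.17 and 7.20, against 4.26, 4.58 and 4.32 in sgRNA 2 progenitors.

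The feedback regulators divided. Trib3, a pseudokinase that binds ATF4 and restrains it, had 0.93 and 1.36 in NTC macrophages (1.07 alone) and 4.30, 4.20 and 3.12 in sgRNA 1 macrophages. These groups were far apart, although the NTC progenitors, at 3.32, 4.46 and 4.60, were as high as the sgRNA 1 macrophages. Trib3 rose by 2.73 (SE 0.44, adjusted p = 0.0011, higher in 3 of 3 libraries). Ppp1r15a, the GADD34 subunit that directs eIF2 dephosphorylation, had 4.70 and 4.77 in NTC macrophages (4.58 alone) and 5.60, 5.51 and 4.92 in sgRNA 1 macrophages. The groups did not overlap, but its difference of 0.61 (SE 0.46, adjusted p = 0.385) did not pass, with progenitor replicates spread from 3.74 to 5.26 in the same fit.

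Chac1, an enzyme that degrades glutathione, had -1.03 and -0.85 in NTC macrophages (-0.96 alone) and 1.98, 1.27 and 0.37 in sgRNA 1 macrophages. It rose by 2.15 (SE 0.38, adjusted p = 0.0019), from a level near or under 1 CPM. Chac1 in progenitors lay at 3.13 to 3.27 in NTC and 3.22 to 3.72 in sgRNA 1, above all macrophages of the set.

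The synthesis enzymes rose together in sgRNA 1 macrophages of this set. In the untreated cells of the baricitinib experiment, described below, they did not: Psat1 was lower (-1.39), and Asns (-0.06) and Phgdh (0.76) were not called. Phgdh, the entry enzyme of serine synthesis, had 1.64 and 1.31 in NTC macrophages (1.68 alone) and 4.30, 4.13 and 3.31 in sgRNA 1 macrophages, a rise of 2.44 (SE 0.24, adjusted p = 2.2e-05). Psat1, the next enzyme of that route, had 3.98 and 4.17 (4.02 alone) against 4.75, 5.08 and 5.02, and rose by 0.88 (SE 0.14, adjusted p = 0.0012). Asns, asparagine synthetase, had 5.71 and 5.39 (5.28 alone) against 6.64, 6.44 and 5.88, and rose by 0.77 (SE 0.20, adjusted p = 0.0206). For each of the 3 enzymes every sgRNA 1 macrophage exceeded every NTC macrophage. The Asns call was lost without sgRNA 1 macrophage replicate 1 (0.61, adjusted p = 0.0604) or 2 (0.71, adjusted p = 0.0682) or NTC macrophage replicate 3 (0.61, adjusted p = 0.131), and without a filter on low values (0.77, adjusted p = 0.121).

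Counted over the macrophages, 7 of 10 genes passed (6 higher, 1 lower), where 21.8% of the 11008 genes tested did. Their median log2 fold change was 0.82, beside 0.05 over all genes. Quantile normalization of the same values moved the split of all calls from 1599 higher and 802 lower to 1324 and 1311, and the median of all genes by -0.10. In progenitors, 0 of 10 passed limma's test and 0 had an unadjusted p under 0.05, where 0.936% of all genes passed. The members' median there was -0.09, beside -0.01 over all genes.

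The KO effect differed between the stages for 6 of the 10 genes, where 13.6% of all genes tested had such a difference. The effect in macrophages minus that in progenitors was 2.83 for Ddit3 (SE 0.29, adjusted p = 7.4e-05), 2.83 for Trib3 (SE 0.59, adjusted p = 0.0085) and 2.35 for Phgdh (SE 0.32, adjusted p = 4.7e-04). It was 1.88 for Chac1 (adjusted p = 0.0305), 1.00 for Asns (adjusted p = 0.0339) and 0.95 for Psat1 (adjusted p = 0.0071). All 6 differences were positive. The calls of Chac1 and Asns were the least firm, with adjusted p of 0.0512 to 0.0922 and 0.0542 to 0.110 without 1 of several libraries. Without a filter on low values Trib3 (adjusted p = 0.0843), Chac1 (0.144) and Asns (0.177) were not called, and with log2(CPM + 1) Chac1 was 0.96 and not called (adjusted p = 0.106). With the replicate number as a block Chac1 was 1.82 and not called (adjusted p = 0.0502). Atf4 (0.49, adjusted p = 0.318) and Cebpg (-0.44, adjusted p = 0.147) did not pass, so their macrophage effects were not shown to differ from the progenitor effects. Over all genes, 1090 of these differences were higher and 410 lower, and 952 and 665 after quantile normalization, which moved the median of all genes by -0.11.

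**Figure D2:**
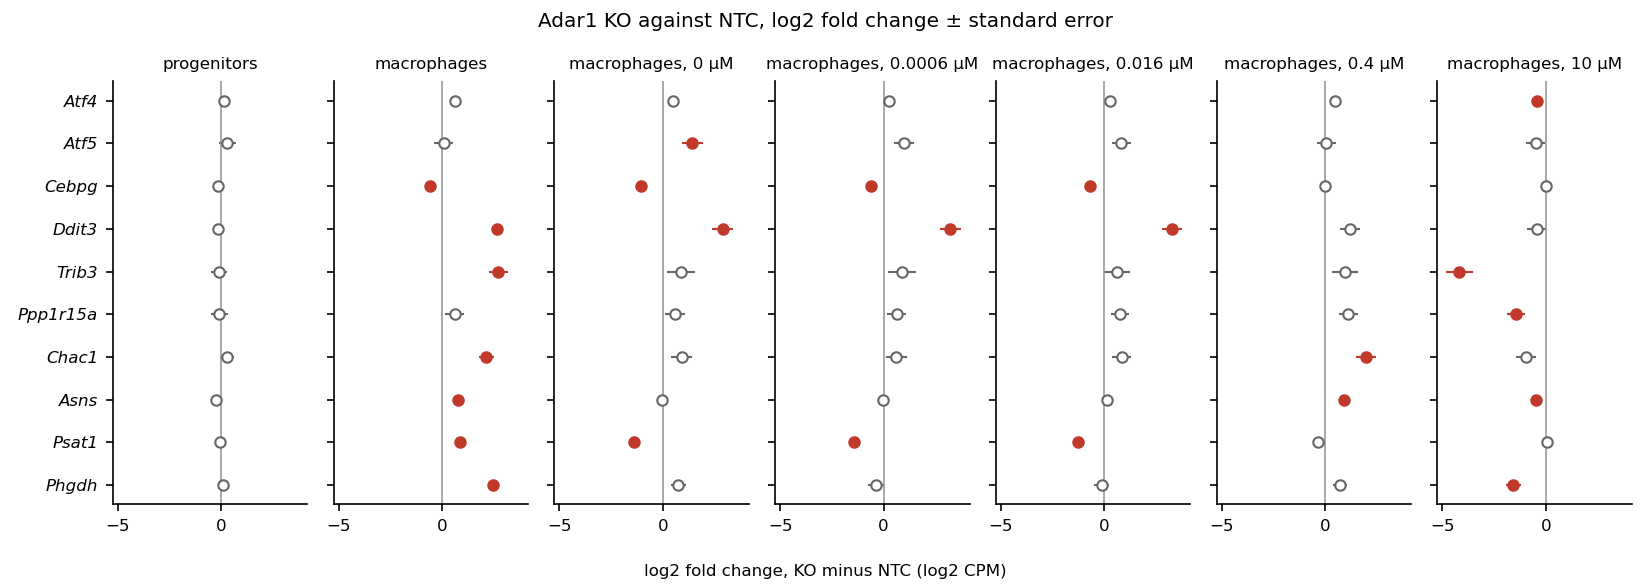
Log2 fold change of Adar1 KO against NTC for each of the 10 genes (horizontal axes) in progenitors, macrophages and the 5 baricitinib doses; filled points passed limma's test at an adjusted p under 0.05 and bars are standard errors. Ddit3 lies at 2.66 to 3.27 in sgRNA 1 macrophages and at the 3 lowest doses, and at -0.43 at 10 µM.

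Other genes of the response were tested in the same macrophages, where 14.5% of all genes were higher and 7.29% lower. Of the 4 eIF2 kinases, Eif2ak2 alone rose, from 4.88 and 5.23 in NTC (5.39 alone) to 7.03, 6.76 and 6.73 (difference 1.78, adjusted p = 1.8e-05). Its difference between stages was 1.75 (adjusted p = 3.2e-04). Of 8 eIF2 and eIF2B subunits and phosphatase genes, 2 rose, Eif2s1 (0.53) and Eif2b2 (0.52). Further ATF4-linked synthesis genes had 2 of 7 higher, Mthfd2 (1.69) of mitochondrial folate metabolism and Aldh18a1 (0.38) of proline synthesis. Amino acid transporters had 2 of 7 higher, Slc1a4 (1.48) and the cystine carrier Slc7a11 (1.43), with a list median of 1.18.

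Aminoacyl-tRNA synthetases had 2 of 12 higher, Eprs (0.42) and Yars (0.41). Of 6 further stress outputs tested, Gdf15, a secreted stress cytokine, rose by 2.35 and Herpud1, a factor of ER-associated degradation, was the only member of its list that fell. None of 12 ER chaperone and unfolded protein response genes passed limma's test, with a median of -0.12. None of the 3 partner factors Atf3, Cebpb and Nupr1 did either.

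Markers of other states moved in the same macrophages. All 10 interferon-stimulated genes rose, with a median of 5.56 and Rsad2 (7.04), Ifit3 (6.22) and Ifit1 (6.05) changing most, and their summed level was 10640, 9094 and 4958 CPM against 135 to 151 in NTC. The lowest sum belonged to sgRNA 1 macrophage replicate 3, which was also lowest of its group for Atf4, Atf5, Ddit3, Trib3, Ppp1r15a, Chac1, Asns and Phgdh. All 6 proliferation genes rose (median 2.35), and 3 of 6 macrophage markers fell, Mertk (-1.52), Csf1r (-1.38) and Emr1 (-0.82). The summed proliferation level had the opposite order in the untreated cells of the baricitinib experiment, given below. Neutrophil markers, S100a8 the most abundant, summed to 68.5 to 81.9 CPM against 10.8 to 15.2 in NTC, with 2 of the 5 tested higher (S100a8 2.58 and Ngp 1.77). Progenitor markers, led by Cd34 and with Kit at the lowest value in every sgRNA 1 macrophage, summed to 5.26 to 12.3 CPM against 1.79 to 2.57, beside 18780 to 26910 in NTC progenitors, with Prtn3 (2.12) and Cd34 (1.64) higher. The part of these genes in the members' result was not tested. In progenitors 1 gene over all these lists passed, the macrophage marker Cd68 (-0.91).

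From progenitor to macrophage, most of these genes fell in NTC cells and Ddit3 rose. Of 10 genes, 9 passed (2 higher, 7 lower), where 71.8% of all genes did, with a median of -2.48 beside -0.08 over all genes. Phgdh had 9.63, 9.66 and 9.77 in NTC progenitors, and with 1.64 and 1.31 in macrophages fell by 8.21 (SE 0.24, adjusted p = 1.6e-10). Psat1 had 8.61, 9.02 and 8.71 in progenitors (-4.71), Asns 8.53, 8.91 and 8.54 (-3.11). Falls in the other genes were -4.14 for Chac1, -2.98 for Trib3, -1.98 for Atf4 (adjusted p = 1.1e-05) and -1.26 for Atf5 (adjusted p = 0.0281). Ddit3 rose by 0.86 (SE 0.22, adjusted p = 0.0036) and Cebpg by 0.46 (adjusted p = 0.0121), while Ppp1r15a differed by 0.01. The Atf5 call was lost without NTC progenitor replicate 3, either NTC macrophage library or the filter on low values (adjusted p = 0.136), and the Cebpg call without NTC macrophage replicate 3.

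In sgRNA 1 cells the same step had 7 of 10 genes called (1 higher, 6 lower), where 71.3% of all genes were, with a median of -1.47 beside -0.06, so the share of members called was near that of all genes. Ddit3 rose by 3.69 (SE 0.19, adjusted p = 1.2e-08, higher in 3 of 3 libraries). The genes that fell were Phgdh (-5.87), Psat1 (-3.75), Chac1 (-2.26), Asns (-2.11), Atf4 (-1.49) and Atf5 (-1.45), the last not called without the filter (adjusted p = 0.0542). Trib3 (-0.14) and Cebpg (0.01) did not pass, with overlapping stages. In level, the sgRNA 1 macrophages lay between NTC macrophages and progenitors for the synthesis enzymes, Atf4 and Chac1, and above both for Ddit3. These comparisons share their libraries with those between KO and NTC.

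For sgRNA 2, whose set had no NTC library, only the step from progenitor to macrophage could be tested, and 7 of 10 genes passed (2 higher, 5 lower), where 81.3% of all genes did, with a median of -0.86 beside -0.03. Ddit3 rose by 2.76 (SE 0.07, adjusted p = 1.6e-10, higher in 5 of 5 libraries). Ppp1r15a rose by 1.35 (SE 0.08), from 4.39, 4.72 and 4.62 in progenitors to 5.92, 6.00, 5.83, 5.93 and 5.99. Phgdh had 9.82, 9.82 and 9.72 in progenitors and 5.46, 5.42, 5.39, 5.45 and 5.49 in macrophages, and fell by 4.35. Psat1 (-3.76), Chac1 (-1.69), Atf4 (-1.44) and Asns (-1.40) fell as well. Trib3 overlapped between progenitors (4.56, 5.17 and 5.19) and macrophages (4.59, 4.77, 4.59, 4.71 and 4.73), with a difference of -0.30 (adjusted p = 0.0673). Without sgRNA 2 progenitor replicate 1, Trib3 (-0.50) and Cebpg (-0.38) were called too. The 5 sgRNA 2 macrophage libraries were close to each other for most genes (Psat1 5.00 to 5.07, Atf4 5.96 to 6.04), a spread under that between the sgRNA 1 libraries.

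The further synthesis genes fell with maturation in all 3 lines, where 38.7% (NTC), 37.1% (sgRNA 1) and 41.6% (sgRNA 2) of all genes were lower. In NTC cells all 7 further synthesis genes fell (median -3.45, Cth -5.56 and Shmt2 -3.80 among them), as did 6 of 7 transporters (Slc7a5 -6.57) and 11 of 12 tRNA synthetases (median -1.63). In sgRNA 1 cells the synthesis genes again fell in 7 of 7 (median -3.04), and in sgRNA 2 cells in 7 of 7 (median -2.85). Transporters were lower in 5 of 7 in sgRNA 1 cells, with Slc7a11 higher (0.90), and in 4 of 7 in sgRNA 2 cells, and tRNA synthetases in 11 and 12 of 12. Atf3, a stress-induced partner factor, rose by 6.92 in NTC, 8.40 in sgRNA 1 and 6.74 in sgRNA 2 cells. Eif2ak2 rose between the stages by 1.69 in sgRNA 2 cells, with a value of -0.18 in NTC cells that did not pass. Of the difference between stages in the KO effect, Mthfd2 (1.66) of the synthesis genes and Slc7a11 (2.23) of the transporters passed.

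The baricitinib experiment asked how Adar1 KO and NTC cells changed with the dose of a JAK inhibitor. Without drug, Ddit3 and Atf5 were higher and Psat1 and Cebpg lower in Adar1 KO cells, and at 10 µM Ddit3 in Adar1 KO cells overlapped with NTC cells while Trib3, Ppp1r15a, Phgdh, Asns and Atf4 were below it. The library labelled Adar1 KO at 0.4 µM replicate 2 was far from the others: its mean z-score over the 10 genes was 2.35, against -0.90 to 0.59 in the other 32 libraries. Leaving it out of the fit changes the spread used at every dose.

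**Figure D3:**
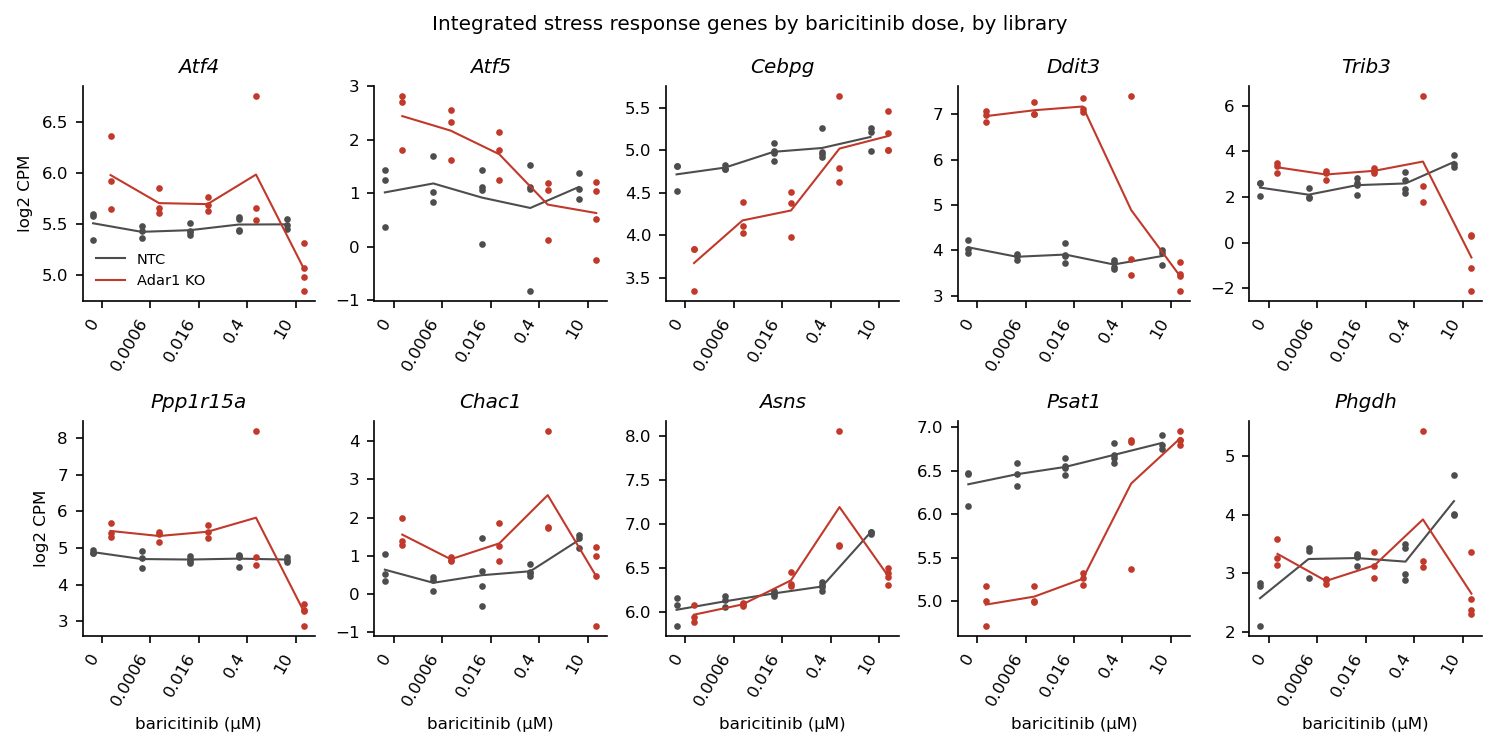
Log2 CPM of the 10 genes (vertical axes) at the 5 baricitinib doses in order (horizontal axes, µM) in NTC and Adar1 KO cells, 1 point a library and lines through the group means. Ddit3 in Adar1 KO cells stays between 6.84 and 7.36 up to 0.016 µM, splits at 0.4 µM and lies at 3.10 to 3.75 at 10 µM.

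Ddit3 in NTC cells lay between 3.59 and 4.22 over all doses. In Adar1 KO cells it had 7.07, 6.84 and 6.98 without drug, 7.01, 7.01 and 7.26 at 0.0006 µM and 7.05, 7.36 and 7.12 at 0.016 µM. In the libraries labelled 0.4 µM it had 3.46, 7.41 and 3.80, and at 10 µM 3.75, 3.48, 3.10 and 3.44. The gene was thus high in every Adar1 KO library at the 3 lowest doses, and at 0.4 µM 2 libraries were near the NTC level and 1 was not. The difference from NTC was 2.89 without drug (SE 0.50, limma, adjusted p = 9.3e-05, higher in 3 of 3 libraries), 3.23 (adjusted p = 1.8e-05) and 3.27 (adjusted p = 4.8e-06) at the next doses, 1.20 at 0.4 µM (adjusted p = 0.0895) and -0.43 at 10 µM (adjusted p = 0.481). Without replicate 2 of the 0.4 µM group the value at 10 µM, still -0.43, was called (adjusted p = 0.0084). The KO effect at 10 µM minus that without drug was -3.33 (SE 0.69, adjusted p = 4.3e-04).

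Of the factors, Atf4 lay between 5.34 and 5.60 in all 17 NTC libraries. Adar1 KO cells had 6.36, 5.93 and 5.65 without drug, from 5.61 to 5.85 at 0.0006 and 0.016 µM, 5.66, 6.75 and 5.54 at 0.4 µM, and 4.85, 4.98, 5.31 and 5.07 at 10 µM. Every Adar1 KO library was above the NTC libraries of its dose up to 0.016 µM, and every one was below them at 10 µM. The differences of 0.47 without drug (adjusted p = 0.0755) and -0.44 at 10 µM (adjusted p = 0.0466) lay close to the threshold. Without replicate 2 of the 0.4 µM group the 0.47 passed (adjusted p = 0.0048). Without Adar1 KO replicate 3 at 0 µM it was 0.63 (adjusted p = 0.0289). The Atf4 call at 10 µM was lost without any 1 of NTC replicates 1 to 3 or Adar1 KO replicates 1, 2 and 4 of that dose, and with quantile normalization (-0.39, adjusted p = 0.0589). Its change in KO effect between the doses was -0.92 (adjusted p = 0.0076).

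Atf5 had 1.43, 0.38 and 1.24 in NTC and 2.70, 2.82 and 1.81 in Adar1 KO cells without drug, a rise of 1.43 (SE 0.50, adjusted p = 0.0346) that was lost without NTC replicate 2 or 3, Adar1 KO replicate 1 or 2 or the filter on low values. At 10 µM it had 1.20, 0.51, 1.05 and -0.25 in Adar1 KO cells and overlapped with NTC. Cebpg had 4.52, 4.81 and 4.81 in NTC and 3.84, 3.84 and 3.34 in Adar1 KO cells without drug, and was lower by an estimate of -1.04 (SE 0.19, adjusted p = 1.9e-04). It was also lower at 0.0006 µM (-0.62, adjusted p = 0.0158) and 0.016 µM (-0.69, adjusted p = 0.0040), the former lost without Adar1 KO replicate 2 or 3 of that dose. At 10 µM, Adar1 KO cells had 5.20, 5.46, 5.00 and 5.00 and NTC cells 5.21, 4.99 and 5.26, which overlapped.

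The feedback regulators ended below NTC at 10 µM. Trib3 had 2.60, 2.62 and 2.03 in NTC and 3.49, 3.34 and 3.07 in Adar1 KO cells without drug, a difference of 0.89 (SE 0.68) that did not pass (adjusted p = 0.372). At 10 µM NTC cells had 3.32, 3.82 and 3.46 and Adar1 KO cells -1.09, -2.12, 0.28 and 0.35. All 4 were below every other library of the set, and the difference was -4.18 (SE 0.64, adjusted p = 5.4e-06). The library labelled 0.4 µM replicate 2 had 6.43, the highest Trib3 value of the set, beside 1.76 and 2.46 in the other libraries of its group.

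Ppp1r15a had 4.86, 4.86 and 4.95 in NTC and 5.30, 5.42 and 5.69 in Adar1 KO cells without drug, which did not overlap. At 10 µM the order was reversed, with 4.68, 4.63 and 4.75 in NTC against 3.29, 2.87, 3.47 and 3.29. The difference was 0.58 without drug (adjusted p = 0.411) and -1.46 at 10 µM (SE 0.45, adjusted p = 0.0091, lower in 4 of 4 libraries). The library labelled 0.4 µM replicate 2 stood at 8.21, against 4.53 and 4.75. Without it, Ppp1r15a was called without drug (0.58, adjusted p = 0.0021), at 0.0006 µM (0.63, adjusted p = 7.9e-04) and at 0.016 µM (0.76, adjusted p = 3.2e-05).

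Chac1 had 0.35, 1.05 and 0.52 in NTC and 1.98, 1.28 and 1.40 in Adar1 KO cells without drug, a difference of 0.92 that did not pass (adjusted p = 0.202). At 0.4 µM all libraries labelled Adar1 KO, with 1.73, 4.27 and 1.76, were above NTC (0.79, 0.47, 0.57 and 0.56), and Chac1 was called there (1.99, SE 0.48, adjusted p = 0.0068). Without replicate 2 the difference was 1.15 and was not called (adjusted p = 0.12). At 10 µM it had 0.47, -0.83, 1.22 and 1.00 in Adar1 KO and 1.20, 1.48 and 1.55 in NTC cells, which overlapped. The difference there of -0.94 (adjusted p = 0.112) was called without the library labelled 0.4 µM replicate 2 (adjusted p = 0.0398).

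The synthesis enzymes separated. Psat1 was lower in Adar1 KO cells without drug, 4.72, 5.00 and 5.17 against 6.09, 6.48 and 6.46 (-1.39, SE 0.22, adjusted p = 2.3e-05), and stayed called at 0.0006 µM (-1.41) and 0.016 µM (-1.29). At 10 µM the groups overlapped, at 6.80 to 6.96 in Adar1 KO and 6.76 to 6.92 in NTC cells. In the sgRNA 1 set Psat1 was higher in Adar1 KO macrophages, so the sign of its effect differed between the experiments, and that difference was not tested across the separately normalized sets.

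Phgdh had 2.10, 2.84 and 2.79 in NTC and 3.58, 3.26 and 3.15 in Adar1 KO cells without drug, a difference of 0.76 (adjusted p = 0.148) that was called without replicate 2 of the 0.4 µM group (adjusted p = 0.0194). At 0.0006 µM the difference was -0.37, with every Adar1 KO library below NTC, and at 0.016 µM -0.12 with overlapping groups, neither of them called. At 10 µM it had 4.02, 4.68 and 4.00 in NTC against 2.37, 2.57, 3.37 and 2.31, a difference of -1.58 (SE 0.35, adjusted p = 6.3e-04). Asns overlapped without drug (5.84, 6.16 and 6.07 in NTC, 5.89, 5.94 and 6.07 in Adar1 KO cells). It was higher at 0.4 µM, 6.76, 8.06 and 6.75 against 6.24 to 6.34 (0.90, SE 0.17, adjusted p = 7.4e-04), and lower at 10 µM, 6.45, 6.50, 6.39 and 6.31 against 6.91, 6.91 and 6.89 (-0.49, adjusted p = 0.0206). Without replicate 2 the Asns difference at 0.4 µM was 0.47 (adjusted p = 3.0e-04) in place of 0.90, and Asns was the only member called there.

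By counts, 4 of 10 genes passed between Adar1 KO and NTC cells without drug (2 higher, 2 lower), where 25.3% of 11152 genes did, with a median of 0.67 beside -0.02. Of the 7 members called in macrophages of the sgRNA 1 set, only Ddit3 and Cebpg were called in the same direction here. At 0.0006 µM 3 passed (1 higher, 2 lower; 29.0% of all genes, median 0.45 beside 0.00), and at 0.016 µM 3 (1 higher, 2 lower; 32.2%, median 0.44 beside 0.00). At 0.4 µM 2 passed, both higher, where 13.5% of all genes did, with a median of 0.81 beside 0.01. That median includes the library labelled replicate 2, which had Ddit3 at 7.41, Ppp1r15a at 8.21 and Phgdh at 5.43. The other Adar1 KO libraries of that dose had 3.46 and 3.80, 4.53 and 4.75, and 3.21 and 3.11. NTC cells ran from 3.59 to 3.79, 4.49 to 4.82 and 2.88 to 3.50. Chac1 and Asns stayed above NTC in each of those libraries, but the 0.81 rests largely on replicate 2. At 10 µM 5 passed, all lower, where 45.3% of all genes did, with a median of -0.49 beside 0.00. Averaged over the doses, 6 passed (4 higher, 2 lower; 57.0% of all genes, median 0.15 beside -0.02), with Ddit3 at 2.03 (SE 0.22, adjusted p = 7.9e-09) and Psat1 at -0.87 (SE 0.09, adjusted p = 7.7e-09). Without the library labelled 0.4 µM replicate 2, Trib3 over the mean of doses went from -0.16 to -0.45 (adjusted p = 0.0312) and Phgdh from -0.12 to -0.27 (adjusted p = 0.0334), so 8 passed. Without replicate 1 of that group Ppp1r15a passed as well (0.46, adjusted p = 0.0351). At 0.0006, 0.016 and 10 µM and over the mean of doses, the share of members called was near that of all genes.

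Single libraries moved several of these counts. The fit without replicate 2 of the libraries labelled 0.4 µM called 7 members without drug (Atf4, Ppp1r15a and Phgdh added), 4 each at 0.0006 and 0.016 µM (Ppp1r15a added), 1 at 0.4 µM and 7 at 10 µM (Ddit3 and Chac1 added). Without replicate 1 of that group 7 members were called at 0.4 µM, and without replicate 3, 6. At 10 µM, 3 members were called without NTC replicate 1 or without NTC replicate 2 of that dose, with Atf4 and Asns lost, as they were without the filter (adjusted p = 0.133 and 0.0662). Over the mean of doses Atf4 (adjusted p = 0.0947) and Atf5 (0.0783) were lost without it, Atf4 also without 1 of 4 single libraries and Atf5 without NTC replicate 2 at 0 µM. At 0.4 µM the split of all calls went from 856 higher and 644 lower to 708 and 834 after quantile normalization.

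From 0 to 10 µM within Adar1 KO cells, 9 of 10 genes passed (3 higher, 6 lower), where 65.8% of all genes did, with a median of -1.01 beside 0.05. Lower values came from Trib3 (-3.94, SE 0.64, adjusted p = 4.6e-06), Ddit3 (-3.52, SE 0.47, adjusted p = 2.5e-07) and Ppp1r15a (-2.24, SE 0.45, adjusted p = 8.2e-05), each in 4 of 4 libraries, and from Atf5 (-1.81) and Atf4 (-0.93). Psat1 rose by 1.91 (SE 0.20, adjusted p = 4.3e-09), Cebpg by 1.49 (adjusted p = 4.4e-08) and Asns by 0.44 (adjusted p = 0.0259). Chac1 (-1.09, adjusted p = 0.0484) was lost without any 1 of the Adar1 KO libraries at 0 µM or replicate 1 or 2 at 10 µM, without the filter (adjusted p = 0.136) and with log2(CPM + 1) (-0.72, adjusted p = 0.081). The Asns call was lost without Adar1 KO replicate 1 or 2 at 0 µM, replicate 2 at 10 µM or the filter (adjusted p = 0.0783). Phgdh, at -0.68, was called without Adar1 KO replicate 3 at 10 µM (-0.92, adjusted p = 0.0297) and without the library labelled 0.4 µM replicate 2 (-0.68, adjusted p = 0.0106), when all 10 genes passed.

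Within NTC cells 2 of 10 passed, both higher, where 13.8% of all genes did, with a median of 0.46 beside 0.00. They were Phgdh (1.66, SE 0.38, adjusted p = 0.0046) and Asns (0.88, SE 0.18, adjusted p = 0.0021), each higher in 3 of 3 libraries. Without replicate 2 of the 0.4 µM Adar1 KO libraries in the fit, 5 passed, with Trib3 (1.12), Psat1 (0.48) and Cebpg (0.44) added. The KO effect at 10 µM differed from that at 0 µM for 9 of 10 genes (2 higher, 7 lower), where 39.5% of all genes differed, with a median of -1.89 beside 0.06. Trib3 had the most negative difference (-5.06, SE 0.93, adjusted p = 1.2e-04), followed by Ddit3 and Phgdh (-2.33, adjusted p = 8.4e-04), and then Ppp1r15a (-2.04), Atf5 (-1.91) and Chac1 (-1.86). Psat1 (1.43, adjusted p = 4.2e-04) and Cebpg (1.05, adjusted p = 0.0025) had positive ones. For Asns the difference of -0.44 was not called (adjusted p = 0.172), but it was without the library labelled 0.4 µM replicate 2 (-0.44, adjusted p = 0.0013).

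Several of these differences were not firm. Without a filter on low values Ppp1r15a (adjusted p = 0.0606), Atf5 (0.0832) and Chac1 (0.111) were not called. The Atf5 call was also lost without NTC replicate 2 at either dose, Adar1 KO replicate 1 or 2 at 0 µM or Adar1 KO replicate 4 at 10 µM (adjusted p from 0.0597 to 0.0830). The Chac1 call was lost without NTC replicate 1 or 3 at 0 µM, NTC replicate 2 or 3 at 10 µM, Adar1 KO replicate 1 at 0 µM or Adar1 KO replicate 2 at 10 µM (adjusted p from 0.0634 to 0.0942), and with log2(CPM + 1) (-1.25, adjusted p = 0.0583).

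Over the ordered doses, 8 of 10 genes had a trend in Adar1 KO cells (3 higher, 5 lower), where 64.1% of all genes did, with a median of -0.10 a step beside 0.01. Ddit3 fell by 0.92 a step (SE 0.11, adjusted p = 2.3e-08) and Trib3 had -0.73, while Psat1 rose by 0.51 and Cebpg by 0.38. In NTC cells 2 of 10 had a trend, where 11.7% of all genes did, with a median of 0.11 beside 0.00. They were Phgdh (0.33 a step, adjusted p = 0.0119) and Asns (0.19, adjusted p = 0.0026). The Phgdh trend was lost without NTC replicate 1 at 0 µM or NTC replicate 2 at 10 µM, and 5 members had a trend without the library labelled Adar1 KO 0.4 µM replicate 2.

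Around the members, Eif2ak2 had 5.81, 5.69 and 5.56 in NTC and 7.05, 7.17 and 6.86 in Adar1 KO cells without drug, and was called from 0 to 0.4 µM (1.34, 1.11, 1.85 and 1.25 in dose order). The libraries labelled Adar1 KO at 0.4 µM ran from 5.26 to 8.21, the high value in replicate 2, and NTC cells from 4.86 to 5.30, so the groups overlapped there. At 10 µM the difference was 0.50 (adjusted p = 0.28). Within Adar1 KO cells Eif2ak2 fell by 1.33 from 0 to 10 µM (adjusted p = 2.6e-03), although the difference in KO effect between these doses, -0.84, did not pass. Of the other synthesis genes 2 fell without drug, Pycr1 (-1.92) and Cth (-1.48), and 5 at 10 µM, with Aldh18a1 (-1.61) and Shmt2 (-1.41) lowest, where 13.7% and 23.9% of all genes were lower. Of the transporters, Slc7a11 (1.23) and Slc3a2 (0.83) were higher and Slc1a5 (-1.06) lower without drug, and Slc6a9 (-1.59) was lower at 10 µM.

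Within Adar1 KO cells, Atf3 (-4.20) and Sesn2 (-2.68), a stress-induced inhibitor of growth signalling, fell from 0 to 10 µM. ER chaperone genes had 9 of 12 higher and 2 lower (median 1.13, Creld2 2.72 and Sdf2l1 2.71), where 33.9% of all genes were higher and 31.9% lower. The tRNA synthetases, with 5 of 12 higher (Gars 1.70) and 5 lower (Wars -2.13 and Aars -1.54), were near those shares. In NTC cells 4 of the 12 ER genes (Dnajc3 0.69, Hspa5 0.56) and 4 of the 12 synthetases (Nars 0.57) were higher at 10 µM, where 5.88% of all genes were.

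Marker levels moved along the same doses. The summed level of the 10 interferon-stimulated genes in Adar1 KO cells was 3530 to 3870 CPM without drug and 18.6 to 21.0 at 10 µM, the latter beside 18.2 to 20.4 in NTC cells. In the libraries labelled 0.4 µM it was 22.1, 34680 and 105 CPM, the high value in replicate 2. Proliferation genes summed to 154 to 215 in Adar1 KO and 468 to 701 in NTC cells without drug, and to 2189 to 3154 and 1152 to 1854 at 10 µM. The order without drug was the reverse of that in the sgRNA 1 set, with 204.8 to 216.3 in sgRNA 1 and 41.89 to 49.45 in NTC macrophages. That reversal was not tested across the separately normalized sets. Macrophage marker sums in Adar1 KO cells went from 6890 to 7181 without drug to 3810 to 4429 at 10 µM, with 5 of 6 markers lower (Emr1 -1.94, Csf1r -1.93). The part of these genes in the members' results was not tested.

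Some genes outside the program followed the members over the 33 baricitinib libraries. Among those with the highest Pearson correlation with the members' mean z-score were Dbnl (0.859), Traf2 (0.857), Tmed1 (0.847) and Icosl (0.832), with Spearman values of 0.508, 0.616, 0.617 and 0.678. Of the members, each of which is part of that mean, Chac1 (0.856), Phgdh (0.855), Trib3 (0.833), Ppp1r15a (0.833), Atf4 (0.832) and Asns (0.709) had Pearson values above those of Ddit3 (0.469), Atf5 (0.262), Cebpg (0.060) and Psat1 (-0.365). By Spearman the order differed, with Trib3 (0.828) and Chac1 (0.758) high, Ppp1r15a (0.456) near Ddit3 (0.478) and Atf5 (0.425), and Asns (0.296) below them. The libraries share drug and guide groups and 1 library stands far from the rest, so these values are a description only.

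The remaining groups had no guide or drug. The plot of the other groups shows their levels. In the early set the only member called between BM progenitors and monocytes was Asns, and the only one between the progenitor types was Atf5.

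**Figure D4:**
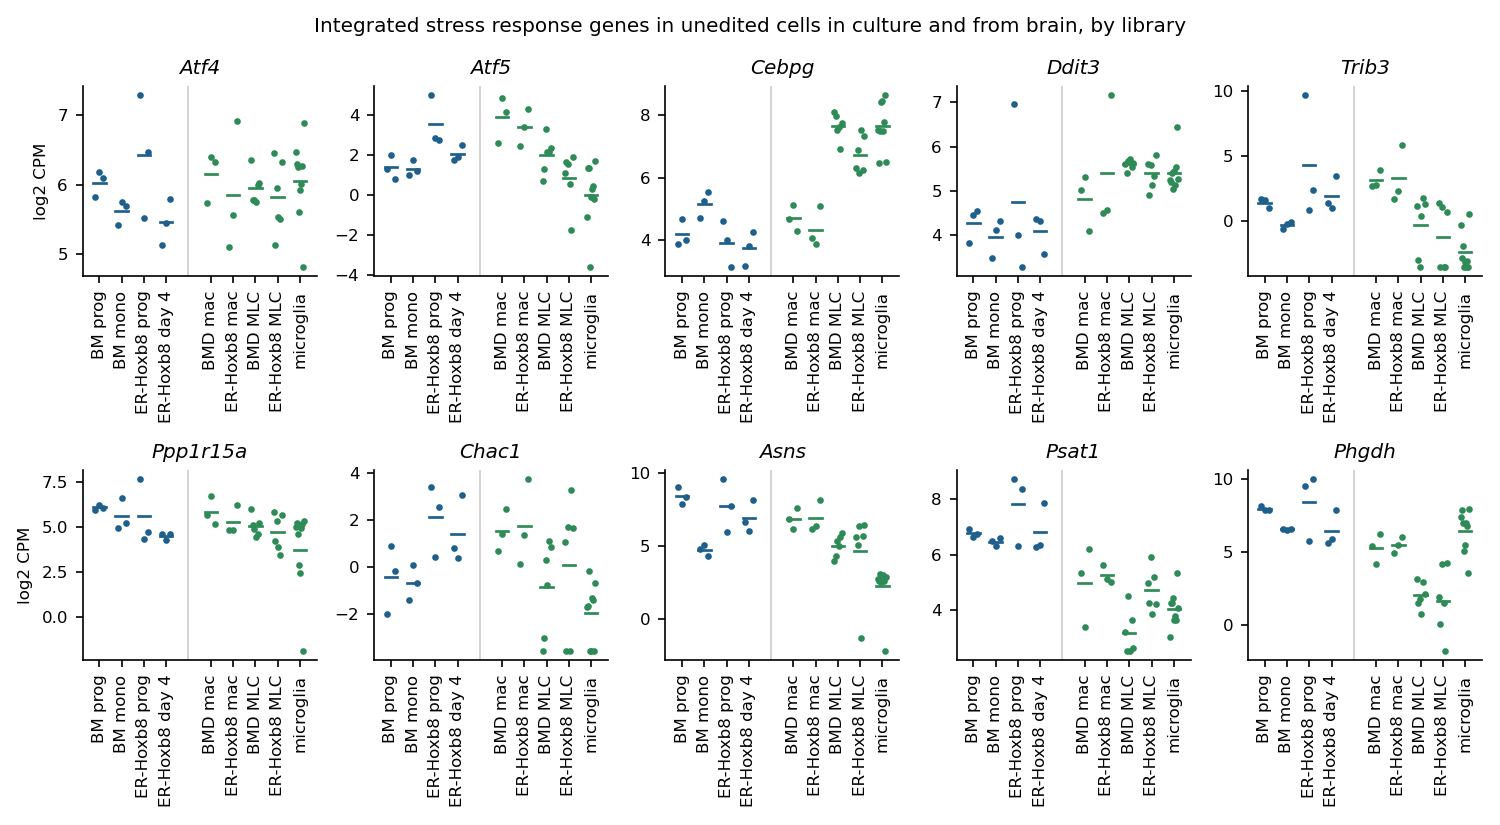
Log2 CPM of the 10 genes (vertical axes) in the groups without a guide, 1 point a library and a bar at each group mean; the early and brain sets were normalized separately and are divided by a grey line. Cebpg lies at 6.14 to 8.65 in all MLCs and microglia and at 3.87 to 5.11 in the macrophages of the same set.

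BM progenitors had Asns at 9.03, 7.85 and 8.36, and BM monocytes at 4.79, 5.07 and 4.32. It fell by 3.69 (SE 0.78, adjusted p = 0.0114, lower in 3 of 3 libraries) and was the only member called between them, where 13.8% of all genes were, with a median of -0.36 beside -0.09. Without BM progenitor replicate 1 the Asns difference was -3.38 and was not called (adjusted p = 0.0611), nor was it without the filter (adjusted p = 0.0615). Phgdh (8.16, 7.86 and 7.91 against 6.61, 6.51 and 6.59), Psat1, Atf4 and Trib3 did not overlap between these groups either, all lower in monocytes, and Cebpg was higher in each monocyte library, but none of these passed. Dissociation genes, led by Fos, summed to 59.3 to 1592 CPM in BM monocytes and 16.1 to 157 in BM progenitors, which overlapped. Lymphocyte markers summed to 84.4 to 155 CPM in monocytes and 268 to 911 in progenitors. The part of these genes in the Asns result was not tested.

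The ER-Hoxb8 progenitors differed among themselves. Trib3 had 9.73, 0.86 and 2.33 and Ddit3 6.96, 3.99 and 3.27 in replicates 1, 2 and 3. Replicate 1 thus had the highest Trib3 value of any library in the set. For Trib3, replicate 2 lay just below the day 4 cells (1.32, 0.96 and 3.42) and replicate 3 within their range. The summed level of 6 progenitor markers was 215, 33.2 and 4090 CPM in the replicates, against 37.1 to 47.3 in day 4 cells and 6928 to 16450 in BM progenitors. Replicate 2 thus carried the progenitor label with these markers slightly below the day 4 level. Replicates 1 and 3 were also below every BM progenitor library. Against BM progenitors 1 member passed, Atf5, where 25.5% of all genes did, with a median of 0.45 beside -0.08. Atf5 had 1.33, 2.02 and 0.84 in BM and 5.04, 2.85 and 2.78 in ER-Hoxb8 progenitors, a difference of 2.16 (SE 0.59, adjusted p = 0.0194). With ER-Hoxb8 replicates 1 and 2 left out, Atf5 was 1.39 and Psat1 went from 1.05 to 1.61. Those values come from 1 ER-Hoxb8 progenitor library assumed to vary like the other groups. Without ER-Hoxb8 replicate 1 alone Atf5 was 1.42 and was not called (adjusted p = 0.0563), and Ppp1r15a went from -0.50 to -1.56 and was called (adjusted p = 0.0283). The Atf5 call was lost without the filter too (adjusted p = 0.0619). No member was called without BM progenitor replicate 1 or without replicate 3, and 5 were called without ER-Hoxb8 progenitor replicate 2.

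Between day 4 and progenitors of ER-Hoxb8 cells 0 of 10 members passed limma's test and 2 had an unadjusted p under 0.05, where 0% of 12056 genes passed. All 10 estimates were negative, with a median of -0.98 beside -0.01, among them Atf5 (-1.50, adjusted p = 0.497) and Atf4 (-0.97, adjusted p = 0.497). With progenitor replicates 1 and 2 left out, Atf4 (-1.01, adjusted p = 0.0439) and Phgdh (-3.56, adjusted p = 0.0049) were called, from a single progenitor library assumed to vary like the other groups. Without progenitor replicate 2 alone 3 were called, Atf4 (-1.43), Psat1 (-1.74) and Phgdh (-3.30).

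In the brain set, BMD and ER-Hoxb8 macrophages overlapped for all 10 genes, and 0 members passed limma's test or had an unadjusted p under 0.05, where 1.96% of all genes passed (median 0.08 beside 0.00). Among the ER-Hoxb8 macrophages, replicate 3 had Ddit3 at 7.18 beside 4.49 and 4.56, Trib3 at 5.82 beside 1.68 and 2.27, and Asns at 8.13 beside 6.19 and 6.36. That library was high for each of these genes, so comparisons with this group are given without it as well.

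Cebpg was higher in cells from the brain than in cultured macrophages of either source. It had 4.68, 5.11 and 4.31 in BMD macrophages, 4.06, 3.87 and 5.08 in ER-Hoxb8 macrophages, a lowest, median and highest value of 6.93, 7.67 and 8.09 in BMD MLCs, and 6.14, 6.59 and 7.52 in ER-Hoxb8 MLCs. Microglia had 6.48, 7.53 and 8.65 and overlapped with both kinds of MLC, and no brain library overlapped with the cultured macrophages. The rise from macrophages to MLCs was 2.94 for BMD (SE 0.43, adjusted p = 1.6e-05) and 2.40 for ER-Hoxb8 cells (SE 0.43, adjusted p = 1.5e-04), in 6 of 6 libraries each.

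Between BMD MLCs and BMD macrophages 3 members passed (1 higher, 2 lower), where 30.6% of all genes did, with a median of -1.83 beside -0.01. Phgdh had 5.45, 4.19 and 6.26 in BMD macrophages and 0.74, 1.96 and 3.16 as the lowest, median and highest in BMD MLCs, and fell by 3.24 (SE 1.01, adjusted p = 0.0166). Psat1 fell by 1.81 (SE 0.55, adjusted p = 0.0142). Both calls were lost without BMD macrophage replicate 1 or without replicate 3, when 1 member was called. Replicate 3, the highest of its group for both genes, has a library name of another series (wBM) than replicates 1 and 2 (Mac). Trib3 (-3.48, adjusted p = 0.0527) was called without BMD MLC replicate 1, 5 or 6.

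Between ER-Hoxb8 MLCs and ER-Hoxb8 macrophages 4 passed (1 higher, 3 lower), where 34.8% of all genes did, with a median of -1.12 beside -0.15. Trib3 in the MLCs ran from -3.62, the lowest value of the brain set, through a median of -1.48 to 1.32, and fell by 4.56 (SE 1.36, adjusted p = 0.0115). Replicates 2, 4 and 5 were all at that lowest value, so the median and the size of the fall depend on where it lies. Phgdh ran from -1.78 through 1.73 to 4.22 in these MLCs, against 4.92, 5.45 and 6.04, and fell by 3.78 (SE 1.01, adjusted p = 0.0056). Atf5 fell by 2.56 (adjusted p = 0.0322, and 0.0737 without the filter), and Ddit3 differed by -0.01. Without ER-Hoxb8 macrophage replicate 3 and microglia replicate 8, Trib3 (-3.28, adjusted p = 0.0923) and Atf5 (-2.10, adjusted p = 0.124) were not called and Ddit3 was higher in the MLCs (0.87, adjusted p = 0.0155). Without ER-Hoxb8 macrophage replicate 3 alone 2 members were called. Atf5 was also lost without ER-Hoxb8 macrophage replicate 2 (adjusted p = 0.0846) or MLC replicate 5 (adjusted p = 0.0731), and with the MLC libraries named GFPHox alone both Atf5 (-1.96, adjusted p = 0.148) and Trib3 (-3.67, adjusted p = 0.0754) were.

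Against microglia, both kinds of MLC had less Phgdh, and more Asns in calls that single libraries could end. Microglia had Phgdh at a lowest, median and highest value of 3.55, 6.96 and 7.97 and Asns at -2.23, 2.71 and 3.09, the lowest in replicate 8. Asns in BMD MLCs had 3.97, 5.14 and 5.88, above all microglia, and in ER-Hoxb8 MLCs -1.30, 5.64 and 6.46, the lowest in replicate 4. Phgdh was lower in BMD MLCs by an estimate of -4.39 (SE 0.75, adjusted p = 8.7e-05) and in ER-Hoxb8 MLCs of -4.76 (SE 0.75, adjusted p = 1.5e-05). These comparisons share the microglia libraries. Astrocyte markers, 4 genes of which Aqp4 was at the lowest value in every microglia library, summed to 167 to 403 CPM in microglia, nearly all of it Slc1a3, against 8.46 to 13.6 in BMD and 18.8 to 36.2 in ER-Hoxb8 MLCs. Slc1a3 was lower in both kinds of MLC (-5.69 and -4.74) and Gfap higher (2.43 and 2.95), and their part in the Phgdh result was not tested.

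For BMD MLCs against microglia 3 members passed (2 higher, 1 lower), where 20.5% of all genes did, with a median of 0.65 beside 0.06. Asns was higher by 2.79 (SE 0.89, adjusted p = 0.0253) and Atf5 by 1.99 (SE 0.68, adjusted p = 0.0389). The Atf5 call was lost without any 1 of BMD MLC replicates 3 to 6, without microglia replicate 1, 4 or 5, without a filter (adjusted p = 0.0882) and with quantile normalization (1.70, adjusted p = 0.0727). The Asns call was lost without BMD MLC replicate 5 or 6 (adjusted p = 0.055 and 0.0593) or the filter (adjusted p = 0.0763). For ER-Hoxb8 MLCs 3 passed (1 higher, 2 lower), where 33.9% of all genes did, with a median of 0.76 beside -0.10. Asns was higher by 2.42 (adjusted p = 0.0366) and Cebpg lower by an estimate of -0.90 (adjusted p = 0.0304). Chac1 (2.06, adjusted p = 0.114) was called with log2(CPM + 1) (1.20, adjusted p = 0.0343). It was also called without ER-Hoxb8 MLC replicate 2 or 4 (2.80 each, adjusted p = 0.0280 and 0.0277), both at the lowest value. The Asns value was 1.86 (adjusted p = 0.0555) without microglia replicate 8. The Asns call was also lost without any 1 of ER-Hoxb8 MLC replicates 1, 2, 3, 5 and 6 (adjusted p from 0.0634 to 0.0975), without the filter (adjusted p = 0.102), with the MLC libraries named WTHox alone (1.38, adjusted p = 0.374) and without the microglia libraries named YSWT (1.88, adjusted p = 0.0705). The Cebpg call was lost without the filter (adjusted p = 0.0738), without ER-Hoxb8 MLC replicate 1, 3 or 5 or microglia replicate 4 or 5, and with the libraries named WTHox alone (-0.61, adjusted p = 0.271).

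Between the MLCs, 1 member passed, Psat1, where 15.2% of all genes did, with a median of -0.34 beside -0.22. It had 2.48, 2.90 and 4.50 as the lowest, median and highest in BMD MLCs and 3.85, 4.60 and 5.89 in ER-Hoxb8 MLCs, a difference of 1.57 (SE 0.45, adjusted p = 0.0182) with overlapping ranges. Without ER-Hoxb8 MLC replicate 3 it was 1.33 and was not called (adjusted p = 0.0545), nor was it with the libraries named WTHox alone (1.25, adjusted p = 0.12), and without replicate 4 Cebpg (-1.06, adjusted p = 0.0432) was called too.

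Among the other lists of these comparisons, Eif2ak2 was higher in ER-Hoxb8 MLCs than in ER-Hoxb8 macrophages (1.23), microglia (2.30) and BMD MLCs (1.73). All 10 interferon-stimulated genes were higher in the same comparisons, with medians of 5.09, 5.76 and 3.67. The tRNA synthetases had 6 of 12 lower in BMD MLCs than in BMD macrophages (median -1.19, Wars -3.51) and 4 lower in ER-Hoxb8 MLCs than in their macrophages, where 13.9% and 18.2% of all genes were lower. The transporter Slc1a4 was lower than in microglia in BMD (-4.49) and ER-Hoxb8 MLCs (-4.90), and Slc1a5 higher (3.85 and 3.44).

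Neutrophil markers were present in the cells sorted from brain. The summed level of 6 such genes, Ngp the most abundant and none at the lowest value in every library, was 4771 to 34280 CPM in BMD MLCs, 263 to 44400 in ER-Hoxb8 MLCs and 439 to 6443 in microglia, against 3.21 to 16.4 in BMD and 10.4 to 38.5 in ER-Hoxb8 macrophages. All 6 were higher in both kinds of MLC than in their macrophages, with medians of 11.85 and 7.09. Cebpg was higher in the same comparisons, and the part of these markers in the result was not tested. Lymphocyte markers, led by Nkg7, summed to 6.13 to 521 CPM in ER-Hoxb8 MLCs and 0.562 to 13.7 in microglia. Microglia replicate 8 had Ddit3 at 6.43, beside 5.05 to 5.53 in the other microglia.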

How the data were processed

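Bulk RNA-seq of 92 libraries was used as deposited: the authors' log2 CPM values, made from kallisto (0.46.0) estimates on build GRCm39 and normalized with edgeR's TMM method, per the submitters' processing notes. Each set of libraries shares a lowest value, from which CPM was rebuilt and the set's mean depth estimated, assuming a prior count of 2; depth per library was not estimated. Groups came from the sample labels. The row without a gene name held at most 0.0582% of the summed values and was left out.

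Groups of a set were fitted together with limma 3.58.1 (R 4.3.3; group means, empirical Bayes with trend, two-sided), after a filter of CPM above 1 in at least 3 libraries (6 in the brain set). p-values were adjusted by Benjamini-Hochberg over all genes tested, and an adjusted p under 0.05 was called. A dose trend is the change per step of the dose order. The code was tested on simulated data. Replicate numbers paired libraries in sgRNA 1 against NTC progenitors (correlations of deviations 0.158 to 0.349) and in day 4 against ER-Hoxb8 progenitors (0.226 to 0.427). The block changed no member's call in either. No other comparison met the rule, which needed at least 3 pairs. Between sgRNA 1 and NTC macrophages there were only 2 pairs (0.153 and 0.158), so pairing there could not be judged.

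Members and lists were chosen with earlier results of these data known. Genes named beside the members are Adar, the eIF2 kinases, up to 4 genes a list and comparison that passed with the largest change, and the 5 genes most correlated with the members over the baricitinib libraries. Some results under this rule are not reported here. Alternatives were log2(CPM + 1), no filter, quantile normalization, an added log2 fold limit of 2, each library left out, the replicate number as a block, single library series and, chosen after seeing the data, libraries that stand apart left out. Tables and plots used Python 3.11.15, numpy 2.4.6, pandas 2.3.3 and matplotlib 3.10.9.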

Additional observations from a re-analysis of the deposited data

Results flagged for a closer look

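In groups of 4 to 10 libraries, 7 of 70 checks of a member found 1 library far from the rest of its group, where chance gives about 1 in 20 groups. Microglia replicate 8 accounted for 3 of them, with Ddit3 at 6.43 (others 5.05 to 5.53), Asns at -2.23 (others 2.50 to 3.09) and Ppp1r15a at -1.94 (others 2.42 to 5.30). Among the ER-Hoxb8 MLCs, Asns was -1.30 in replicate 4 (others 5.05 to 6.46) and Atf5 was -1.72 in replicate 5 (others 0.58 to 1.90). Cebpg was 3.26 in sgRNA 2 macrophage replicate 2 (others 3.51 to 3.58) and 5.26 in NTC replicate 4 at 0.4 µM (others 4.92 to 4.97).

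The Adar1 KO effect differed between stages, as macrophages minus progenitors, for Ddit3 (2.83), Trib3 (2.83), Phgdh (2.35), Chac1 (1.88), Asns (1.00) and Psat1 (0.95). It differed between 10 and 0 µM baricitinib for Trib3 (-5.06), Ddit3 (-3.33), Phgdh (-2.33), Ppp1r15a (-2.04), Atf5 (-1.91), Chac1 (-1.86), Atf4 (-0.92), Cebpg (1.05) and Psat1 (1.43). Each had an adjusted p under 0.05 in limma's test of the difference itself.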

How the results depend on the processing

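Of 4050 log2 fold changes of single members under the alternatives, 3649 kept their direction and side of the threshold. Of the rest, 58 gained a call, 202 lost one and 140 changed sign with no call in either fit. The remaining 1 changed sign with a call: Ddit3 in ER-Hoxb8 MLCs against their macrophages became 0.87 with the libraries that stand apart left out. That alternative was added after seeing the data. Depth was estimated only as a mean per set, the lowest being 13.7 M reads in the baricitinib set, and genes near 1 CPM, such as Chac1 and Trib3 in some groups, depend most on the offset. The cause of the shifts was not tested unless the alternative's construction gives it.

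With the fold limit added, which can only lower a count, members called were 4 in sgRNA 1 macrophages, 5 and 3 between stages in NTC and sgRNA 2 cells, and 3 for the difference between stages. In the baricitinib set they were 1, 1, 1, 0 and 1 in dose order, 1 over the mean of doses, 3 and 0 from 0 to 10 µM in Adar1 KO and NTC cells, 4 for the difference in KO effect, and 0 for both trends. It left 0 between the MLCs. Without the filter, which adds genes to the adjustment, 3 were called for the difference between stages and 3 at 10 µM. It also left 0 for monocytes and 0 for ER-Hoxb8 against BM progenitors, and 1 each for BMD and ER-Hoxb8 MLCs against microglia. Single calls lost there included Atf5 without baricitinib (1.43, adjusted p = 0.104) and Trib3 for the difference between stages (2.83, adjusted p = 0.0843).

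Quantile normalization gave 2 for ER-Hoxb8 against BM progenitors and 2 between the MLCs. It added Cebpg between stages in sgRNA 2 cells (-0.40, adjusted p = 0.0221) and Trib3 in BMD MLCs against BMD macrophages (-3.70, adjusted p = 0.0328). It also lost Chac1 from 0 to 10 µM in Adar1 KO cells (-0.97, adjusted p = 0.0789) and Atf5 in BMD MLCs against microglia (1.70, adjusted p = 0.0727). With log2(CPM + 1), 5 were called in BMD MLCs against macrophages, and Chac1 missed for the difference between stages (0.96, adjusted p = 0.106). ER-Hoxb8 MLC libraries named GFPHox alone gave 2 against macrophages, and those named WTHox alone gave 1 against microglia and 0 against BMD MLCs. With the libraries that stand apart left out the counts were 2 at day 4, and in the baricitinib set 7, 4, 4, 1 and 7 in dose order, 8 over the mean of doses, 10 and 5 from 0 to 10 µM in Adar1 KO and NTC cells, 10 for the difference, and 8 and 5 for the trends.

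With the replicate block the counts were 0 in progenitors, where 94 genes in all were called in place of 103, and 7 in macrophages of sgRNA 1. They were 9, 7 and 7 between stages in NTC, sgRNA 1 and sgRNA 2 cells, and 5 for the difference between stages. The block gave 4, 3, 3, 2 and 4 in dose order, 8 and 2 from 0 to 10 µM in Adar1 KO and NTC cells, and 8 for that difference. In ER-Hoxb8 MLCs against microglia it gave 2. Most of these libraries share only a number, and correlations of their deviations ran from -0.343 to 0.305 outside the 2 paired comparisons. The calls lost with it were Chac1 for the difference between stages (1.82, adjusted p = 0.0502), from 0 to 10 µM in Adar1 KO cells (-1.06, adjusted p = 0.076) and for the difference between doses (-1.83, adjusted p = 0.0547), Atf4 at 10 µM (-0.44, adjusted p = 0.0687) and Asns in ER-Hoxb8 MLCs against microglia (1.85, adjusted p = 0.0573). No other call changed.

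Leaving out in turn each library of the groups compared, and no other library of the fit, the members called ranged from 0 to 0 in sgRNA 1 progenitors, 5 to 8 in sgRNA 1 macrophages, and 4 to 6 for the difference between stages. Between stages they ranged from 7 to 9 in NTC, 7 to 7 in sgRNA 1 and 7 to 9 in sgRNA 2 cells. In dose order the ranges were 3 to 5, 2 to 3, 3 to 3, 1 to 7 and 3 to 5, and 5 to 8 over the mean of doses. From 0 to 10 µM they were 7 to 10 in Adar1 KO and 2 to 2 in NTC cells, 7 to 9 for the difference, and 8 to 8 and 1 to 2 for the trends. Several counts without Adar1 KO 0.4 µM replicate 2, given above, lie outside these ranges. The early comparisons ranged from 0 to 1 for monocytes, 0 to 5 for ER-Hoxb8 against BM progenitors and 0 to 3 for day 4. In the brain set the ranges were 0 to 0 between macrophages, 1 to 4 and 2 to 4 for BMD and ER-Hoxb8 MLCs against macrophages, 1 to 3 and 1 to 4 against microglia, and 0 to 2 between the MLCs.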
